A study of Homo sapiens with 21 samples.

Results

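The integrin and matrix adhesion receptor genes are 10 genes chosen by name: ITGA2, ITGA3, ITGA5, ITGA6, ITGAV, ITGB1, ITGB3, ITGB4, ITGB5 and CD44. Chromatin immunoprecipitation followed by sequencing (ChIP-seq) with an antibody against Flag had located Flag-tagged estrogen receptor beta (ER-beta) in MDA-MB-231 cells, an established triple-negative breast cancer line carrying a doxycycline-inducible copy of the receptor. Every enriched region whose summit lay within 50 kb of one of the 10 gene bodies (GENCODE 44, hg38) was taken, which gave 55 of 26861 regions with estradiol, 14 of 10045 with LY500307 and 2 of 2905 with ethanol. All groups had received doxycycline at 100 ng/ml for 24 h before 3 h of ligand or vehicle, so every group carried the induced receptor. The groups were ethanol vehicle, 1 nM estradiol, the natural estrogen, and LY500307, a selective ER-beta agonist whose dose is 1 nM in the sample titles and 10 nM in the sample characteristics. The labels give 4 ChIP and 3 input libraries per treatment, while the protocol text speaks of triplicates, and 1 list of regions per treatment was analysed here, so the number of libraries behind each list is not known. No value therefore has a replicate error, no difference between treatments was tested, and the read depth behind the lists is unknown. Fold enrichment, written as fold, is the authors' ratio, at a region's summit, of ChIP signal to the background around it, in a list read as a pool. The lists were scaled separately, so folds of 1 site in several lists are set side by side and do not measure a change.

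Integrins are receptors made of an alpha and a beta chain that span the plasma membrane and tie the matrix outside the cell to actin or keratin filaments inside it. The beta chain ITGB1 pairs with ITGA2 to bind collagen, with ITGA3 or ITGA6 to bind laminin and with ITGA5 to bind fibronectin; ITGB4 pairs with ITGA6 in hemidesmosomes, and ITGAV pairs with ITGB3 or ITGB5 to bind vitronectin. CD44 is a receptor for hyaluronan. ER-beta binds DNA at the estrogen response element (ERE), a palindrome of GGTCA, 3 bases of any kind and TGACC, and estrogen receptors can also be held at AP-1 and SP1 elements by other factors.

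An ERE with at most 1 of its 10 fixed bases changed lay within 100 bp of 7 of the 55 estradiol summits (12.7%). The share over the whole estradiol list was 13.8%. The 7 lay at different genes, and the share of all genes with such a region was not counted. These 7 are printed because they carry the recognition letters of the receptor itself, as the plus strand of hg38 with 20 bases on each side and the ERE in capitals.
ITGA2 (intron 28, chr5:53089413-53089465): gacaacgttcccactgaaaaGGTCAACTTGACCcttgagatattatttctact
ITGA5 (intergenic, chr12:54360755-54360807): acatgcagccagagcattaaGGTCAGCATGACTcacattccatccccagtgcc
ITGA6 (intron 11, chr2:172481120-172481172): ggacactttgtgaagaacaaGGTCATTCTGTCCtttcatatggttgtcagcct
ITGB3 (intron 13, chr17:47306325-47306377): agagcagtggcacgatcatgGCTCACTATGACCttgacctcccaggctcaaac
ITGB4 (intron 18, chr17:75738410-75738462): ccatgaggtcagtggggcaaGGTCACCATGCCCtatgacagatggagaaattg
ITGB5 (intron 5, chr3:124833924-124833976): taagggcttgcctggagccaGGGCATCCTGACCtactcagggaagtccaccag
CD44 (intergenic, 40.8 kb upstream, chr11:35098118-35098170): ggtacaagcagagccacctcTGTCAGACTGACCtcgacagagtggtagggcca

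The ITGA2 element was intact and the other 6 carried 1 substitution each. Counted from 1 at the left end of the ERE, with the consensus base first, these were C13T at ITGA5, A11T at ITGA6, G2C at ITGB3, A11C at ITGB4, T3G at ITGB5 and G1T at CD44. The left arm was intact at ITGA5, ITGA6 and ITGB4, and the right arm at ITGB3, ITGB5 and CD44. The centre of the ERE lay 11 to 16 bp from the estradiol summit at ITGA2, ITGA6, ITGB3, ITGB4 and ITGB5, 41 bp from it at ITGA5 and 63 bp from it at CD44. Across the estradiol list, 64.8% of the EREs lay within 20 bp of the summit. Here the intact element did not mark a strong region: the fold was 6.15 at ITGA2 and 77.3 at ITGB5, whose element has a mismatch. These 2 regions do not describe the list. There, an ERE with at most 1 mismatch was in 8.93% of regions under a fold of 10, 16.6% from 10 to under 20 and 21.6% at 20 or more.

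The first question was which of the genes lay near a region with each treatment. With estradiol, all 10 genes had a region within 50 kb, against 74.5% of 20007 protein-coding genes; the single ITGAV region had a -log10 q of 3.94, and with a minimum of 5 there were 9. With LY500307, 8 of 10 had one, against 49.2% of all genes; ITGAV and ITGB4 had none. With ethanol, ITGB4 and ITGB5 had 1 region each, and this 2 of 10 stands beside 22.8% of all genes. ITGB5 alone had a region in each of the 3 lists, against 20.5% of all genes. The genes are long, with a median body of 85.0 kb against 27.5 kb for all protein-coding genes, and a long body gives a wider window. A length range was set from the shortest member, ITGA5, to the longest, ITGB5, and held 8297 protein-coding genes. Their median body was 51.6 kb, still shorter than the members' 85.0 kb, so the range does not match the lengths fully. Among these genes the shares were 79.5% with estradiol, 51.3% with LY500307 and 24.3% with ethanol.

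**Figure D1:**
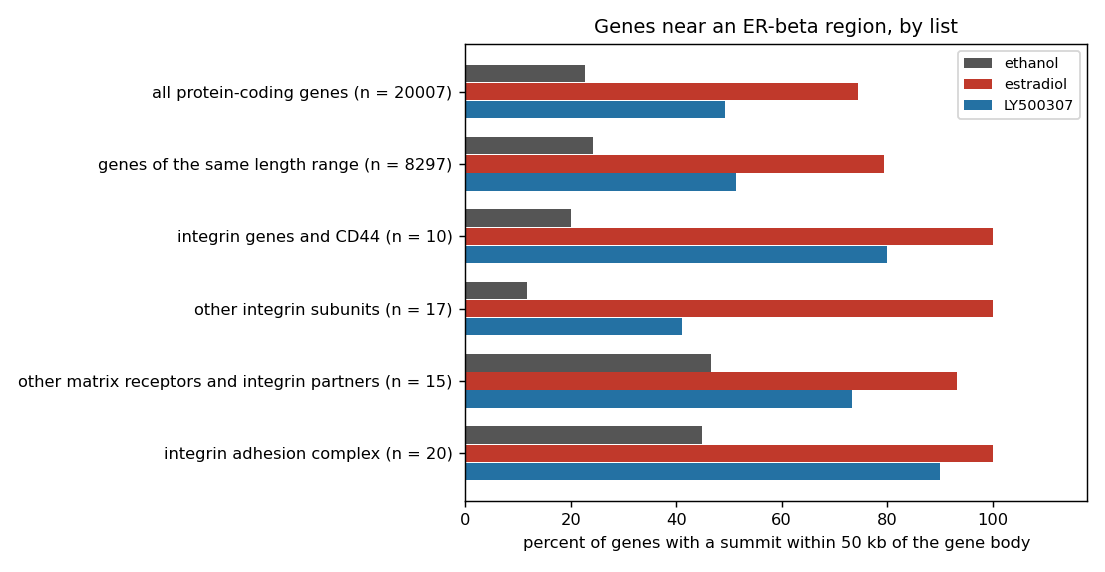
Percent of genes (x axis) with an ER-beta summit within 50 kb of the gene body, for the ethanol, estradiol and LY500307 lists (bars), in each gene list (rows, with the number of genes). All 10 integrin and CD44 genes had an estradiol region, 8 an LY500307 region and 2 an ethanol region.

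The number of regions per gene was uneven. ITGB5 had 11 estradiol regions and ITGA3 had 9, counts reached by 3.08% and 5.97% of all protein-coding genes. ITGB1 had 7, ITGA2 had 6, ITGB3 and CD44 had 5, ITGA6 and ITGB4 had 4, ITGA5 had 3 and ITGAV had 1. The median was 5.0 regions per member, against 2.0 for all protein-coding genes. It was also 2.0 for genes of the same length range, whose median body was shorter than the members'. In the 1.78 Mb of member windows there were 30.9 estradiol summits per Mb, against 12.3 per Mb in the 50 kb windows of all protein-coding genes and 9.14 per Mb in the genome without assembly gaps. With LY500307 the density was 7.86 per Mb against 4.55 and 3.42, and with ethanol 1.12 against 1.32 and 0.989. ITGA3 and ITGB5 held 20 of the 55 estradiol regions and 8 of the 14 LY500307 regions. Without these 2 genes, left out after their counts were seen, the density was 24.9 per Mb with estradiol, 4.26 with LY500307 and 0.71 with ethanol. Estradiol summits were denser around these genes than around genes in general, with and without the pair. For LY500307, 8 of the 14 regions lay at the pair, so the higher density there rests largely on it. Leaving out the genes with most regions lowers the density, while the windows of all genes kept theirs. The values without the pair are therefore not a like comparison with 4.55 per Mb. The median number of LY500307 regions was 1.0 for the members and 1.0 for genes of the same length range. These are descriptions with no test.

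The regions were many but mostly of middling or low fold. The median fold near the members was 9.49 with estradiol, against 9.5 for the whole list, and 7.53 with LY500307, against 8.46. Of the 55 estradiol regions, 6 had a fold of 20 or more (10.9%), against 24.5% of the list. These 6 lay at ITGB5 (2), ITGA3 (3) and ITGB3 (1). By rank of fold, 2 of the 55 were in the highest 10% of the estradiol list and both were in intron 5 of ITGB5.

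**Figure D2:**
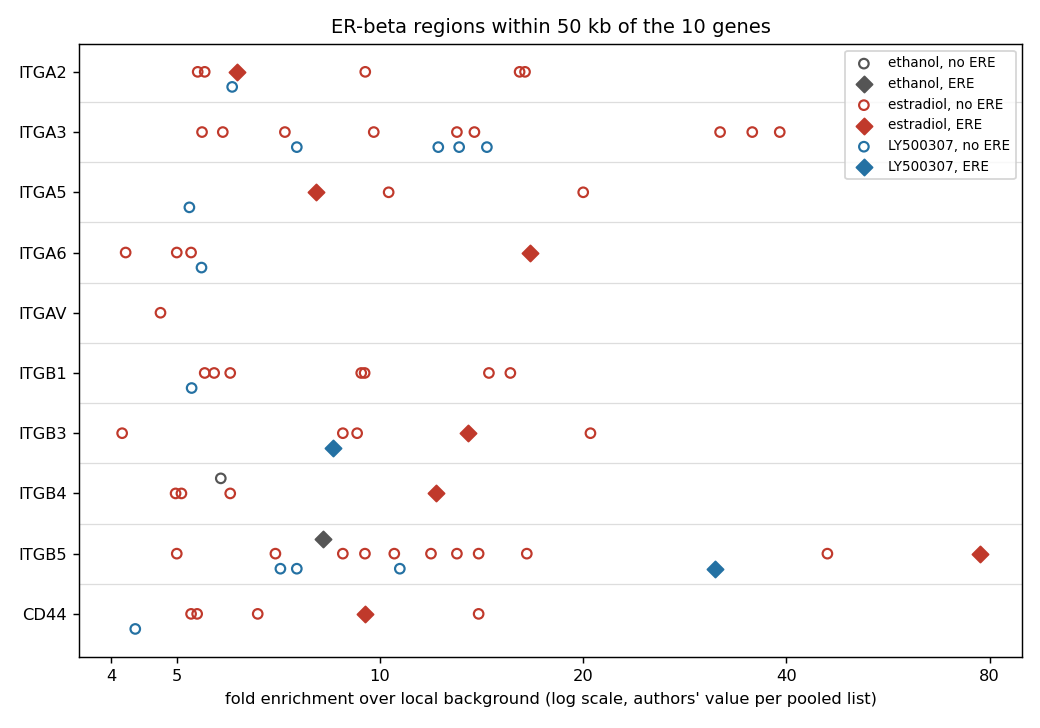
Fold enrichment of every region within 50 kb of each gene (x axis, log scale; genes on the y axis) in the ethanol, estradiol and LY500307 lists; filled diamonds have an ERE with at most 1 mismatch and open circles have none. Folds of 20.5 or more are seen at ITGB5, ITGA3 and ITGB3 alone, and the ERE regions run from 6.15 to 77.3 with estradiol.

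The second question was which estradiol sites were also found with the other treatments. Of the 55 estradiol regions near the members, 14 overlapped an LY500307 region by at least 1 bp (25.5%, Wilson 95% interval 15.8 to 38.3, which covers counting error only), against 33.8% of the list. All 14 LY500307 regions overlapped an estradiol region, against 91.9% of the LY500307 list. Both ethanol regions overlapped an estradiol region, against 87.0% of the ethanol list, which made 2 of 55 estradiol regions (3.64%, 1.0 to 12.3), against 9.26% of the list. A single site, in intron 5 of ITGB5, was in all 3 lists; 8.01% of estradiol regions were. It was the only ethanol region near the members that overlapped an LY500307 region, against 79.8% of the ethanol list, and the only one of 14 LY500307 regions that overlapped an ethanol region, against 22.9% of the LY500307 list. The remaining 40 estradiol regions were in no other list.

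Sharing with LY500307 went with the estradiol fold, near the members as in the whole list. Below a fold of 10, 4 of 32 member regions were shared, against 9.98% of the list. From 10 to under 20, 5 of 17 were shared, against 28.3%. At 20 or more, 5 of 6 were shared, against 90.2%. In each of these bands the share near the members was close to that of the list, and the members had fewer regions in the highest band.

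**Figure D3:**
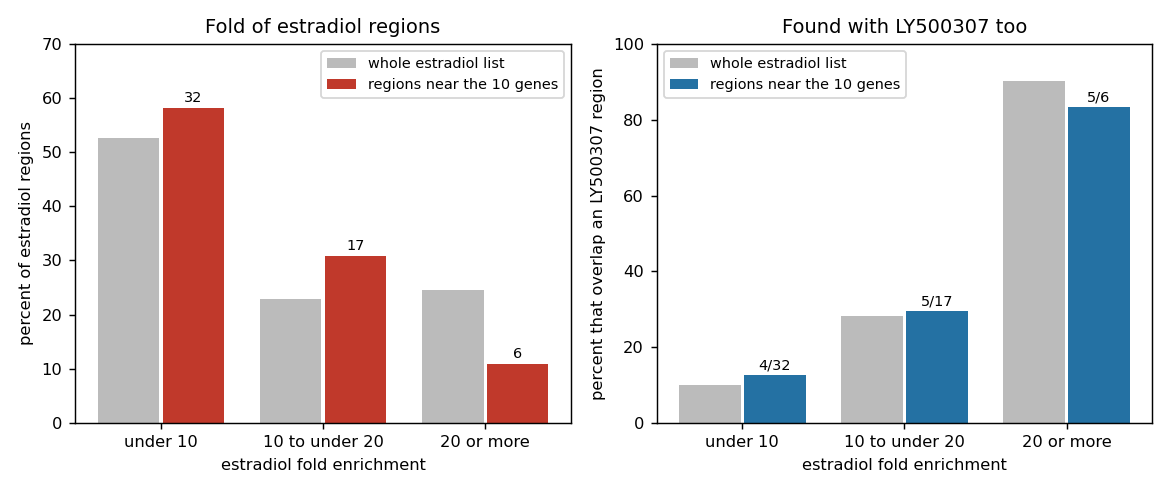
Left, percent of estradiol regions in 3 bands of fold; right, percent of the regions of each band that overlap an LY500307 region. Grey bars are the whole estradiol list and coloured bars the 55 regions near the 10 genes, with their counts above; 32 of the 55 had a fold under 10 and 4 of those were shared.

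Among the laminin receptor genes, ITGA3 held the largest group of shared sites. ITGA3 encodes the alpha 3 chain and lies on chromosome 17 from 50055968 to 50090481. Its strongest region (chr17:50043335-50043724) was intergenic, 12.6 kb upstream of the start site, and its folds were 39.1 (estradiol, rank 3136) and 14.4 (LY500307, rank 2678). The next (chr17:50051032-50051416) lay 4.90 kb upstream, with folds of 35.6 and 12.2. The next (chr17:50077899-50078305) had its summit in coding exon 17 and folds of 31.9 and 13.1. The other shared site, in intron 1 (chr17:50059273-50059581), had folds of 9.79 and 7.53. None of the 4 held an ERE with at most 1 mismatch. In the estradiol list, 21.6% of the regions of fold 20 or more held one, and 8.93% of those under 10. None of the 4 was in the ethanol list, which 22.9% of all LY500307 regions overlapped.

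The summit base and 50 bases on each side at the 3 strongest ITGA3 summits are printed because they show what letters lay under strong regions without an ERE. Capitals mark the half-site AGGTCA, the AP-1 element TGANTCA, the TEAD element GGAATG and the SP1 element GGGCGG on either strand, and any ERE with at most 2 mismatches.
ITGA3 upstream, fold 39.1 (chr17:50043471-50043571, plus strand, hg38): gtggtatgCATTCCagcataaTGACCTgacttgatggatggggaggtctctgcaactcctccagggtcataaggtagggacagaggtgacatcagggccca
ITGA3 upstream, fold 35.6 (chr17:50051161-50051261, plus strand, hg38): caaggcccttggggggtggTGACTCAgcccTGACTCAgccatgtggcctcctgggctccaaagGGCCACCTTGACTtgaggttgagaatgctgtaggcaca
ITGA3 exon 17, fold 31.9 (chr17:50078060-50078160, plus strand, hg38): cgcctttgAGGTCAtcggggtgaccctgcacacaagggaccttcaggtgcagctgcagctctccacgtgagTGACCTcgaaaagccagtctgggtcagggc

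The first of these windows held 1 half-site and 1 TEAD element, the second 2 AP-1 elements and an ERE with 2 mismatches, and the third 2 half-sites. Within 100 bp of the summits, the half-site was present in 44.7% of all estradiol regions, AP-1 in 17.5% and TEAD in 16.3%, so each of these elements is common in the list. A match of letters is not evidence of a bound site.

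The 5 remaining estradiol regions at ITGA3 were in no other list. The highest of them had folds of 13.8, 8.62 kb upstream, and 13.0, 29.2 kb upstream. The ITGA3 promoter region (chr17:50056068-50056533) had a fold of 7.23, and 1 further upstream region had a fold of 5.45. The last, with a fold of 5.85, lay in the promoter of the neighbouring gene PDK2, which encodes a pyruvate dehydrogenase kinase.

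ITGA6, the alpha 6 chain of laminin receptors, and its partner ITGB4 each had an ERE region with estradiol alone. ITGA6 (chromosome 2, 172427354 to 172506459) had 4 estradiol regions, and the highest, in intron 11 (chr2:172480904-172481284), had a fold of 16.7 and held the ERE printed above. The only LY500307 region in its window had a fold of 5.44 at the promoter of PDK1, 49.9 kb beyond the end of the ITGA6 body, where the estradiol fold was 5.0. A weak estradiol region (fold 4.20) lay in intron 1, 0.438 kb from the start site of the MANE transcript, the reference transcript of the gene.
ITGB4 (chromosome 17, 75721328 to 75757818) had its highest estradiol region in intron 18 (chr17:75738260-75738573), with a fold of 12.1 and an ERE. Its other 3 estradiol regions lay 6.88 to 27.4 kb beyond the gene body at GALK1, H3-3B and UNK, with folds of 4.98 to 6.0. The one in intron 1 of UNK (chr17:75785087-75785311) was also the single ITGB4 region of the ethanol list, with a fold of 5.81 there beside 6.0 with estradiol, and it was not in the LY500307 list.

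ITGA2, the alpha chain of a collagen receptor, had 3 of its 6 estradiol regions in intron 2. The gene lies on chromosome 5 from 52989340 to 53094779. Intron 2 held estradiol regions of fold 16.4 (chr5:53027855-53028171), 9.51 and 16.1 (chr5:53037634-53038201). Only the last of these was found with LY500307, where its fold was 6.04. The ITGA2 promoter region (chr5:52989047-52989279) had a fold of 5.5 and a region in intron 1 had 5.37, both with estradiol alone. The region with the intact ERE lay in intron 28 (chr5:53089335-53089534), with a fold of 6.15 and rank 21366 with estradiol, and was in no other list. It was 20.3 kb from the nearest start site, that of MOCS2, a molybdenum cofactor gene.

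ITGB1, the most widely shared beta chain, had 7 estradiol regions, 1 in intron 1 at 18.3 kb from the MANE start site and the others at its promoters or upstream of the MANE transcript. Its GENCODE body (chromosome 10, 32887273 to 33005792, minus strand) is 118.5 kb long, while the MANE transcript spans 57.9 kb from a start site at 32958230. The highest fold was 15.6, at a region 36.4 kb upstream of the gene body (chr10:33041982-33042317). The next was 14.5, inside the GENCODE body and 1.24 kb from the nearest ITGB1 start site. Both were in the estradiol list alone. At the promoter of the MANE transcript, estradiol regions with folds of 6.0 (chr10:32957552-32957876) and 5.5 (chr10:32958007-32958298) had summits 479 bp apart. The promoter of a longer ITGB1 transcript held another (chr10:32992861-32993186), with a fold of 9.38. The other 2, in intron 1 and upstream of the gene body, had folds of 9.49 and 5.68. The ITGB1 promoter region of the LY500307 list (fold 5.26) met the estradiol region of fold 6.0 by 9 bp, with summits 281 bp apart, so it counts as shared by overlap and not by summits within 200 bp.

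A strong region near ITGB1 fell just outside the 50 kb limit and is not among the members' regions. It was intergenic (chr10:33056889-33057391), 51.3 kb from the gene body, and its nearest protein-coding start site was that of ITGB1 at 64.7 kb. Its fold was 98.7 in the estradiol list (rank 636), 32.2 in the LY500307 list (rank 872) and 6.41 in the ethanol list (rank 1731), so it was higher than any estradiol region inside the limit. It held no ERE with at most 1 mismatch. The regions just inside the limit, 40 to 50 kb from a gene body, had estradiol folds of 5.0 to 9.5 at ITGA6 and CD44. The next estradiol region outside it, at ITGA3, had a fold of 4.55.

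ITGB5, which pairs with ITGAV in a vitronectin receptor, held the strongest sites of the group. The gene lies on chromosome 3 from 124761948 to 124901418, on the minus strand. A region in intron 5 (chr3:124833700-124834166) lay 53.4 kb from the MANE start site and 7.62 kb from the nearest start site of a protein-coding ITGB5 transcript. Its fold was 77.3 in the estradiol list (rank 1124 of 26861), 31.4 in the LY500307 list (rank 913 of 10045) and 8.24 in the ethanol list (rank 1037 of 2905). Its summits in the LY500307 and ethanol lists lay 7 and 21 bp from the estradiol summit. The ERE GGGCATCCTGACC was within 100 bp of the summit in all 3 lists.
A second region in the same intron (chr3:124834615-124835043), 875 bp from the first by summit, reached a fold of 46.0 (estradiol) and 10.7 (LY500307) and was not in the ethanol list. Another, 712 bp from the first on the other side, had a fold of 8.81 with estradiol alone. The summit of the region with a fold of 46.0 is printed because it was the strongest member region without an ERE of at most 1 mismatch.
ITGB5 intron 5, fold 46.0 (chr3:124834761-124834861, plus strand, hg38): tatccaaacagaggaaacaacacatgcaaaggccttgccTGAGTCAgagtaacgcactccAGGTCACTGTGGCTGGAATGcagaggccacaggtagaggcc
This window held an AP-1 element, a half-site that was part of an ERE with 2 mismatches, and a TEAD element next to it.

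ITGB5 had 2 more sites in the LY500307 list. In intron 10 (chr3:124779937-124780283) the estradiol fold was 16.5 and the LY500307 fold 7.12. In intron 1 (chr3:124877653-124878074) it was 11.9 and 7.53. The other 6 estradiol regions of the gene, outside intron 5, had folds of 5.0 to 14.0 and were in no other list. The lowest of them was at the ITGB5 promoter (chr3:124887266-124887465).

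ITGB3, the beta 3 chain of another vitronectin receptor, had a pair of neighbouring sites of which the weaker was the shared one. The gene lies on chromosome 17 from 47253827 to 47313743. In intron 13, a region without an ERE of at most 1 mismatch (chr17:47305396-47305777) had an estradiol fold of 20.5 and no LY500307 region. A second region 769 bp away (chr17:47306213-47306493) had an estradiol fold of 13.5, an LY500307 fold of 8.52 and the ERE printed above. The first was the single member region with a fold of 20 or more that was not in the LY500307 list. Both estradiol summits lay 51.7 to 52.5 kb from the ITGB3 start site. The nearest start site was that of EFCAB13, at 17.0 to 17.7 kb. The other 3 estradiol regions of ITGB3 had folds of 9.25, 8.81 and 4.15.

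ITGAV and ITGA5, alpha chains of vitronectin and fibronectin receptors, had the fewest regions. ITGAV (chromosome 2, 186590010 to 186680901) had 1 estradiol region, at its promoter (chr2:186589700-186589899), with a fold of 4.73 and rank 25675, and none in the other lists. ITGA5 (chromosome 12, 54395261 to 54419266, minus strand) had none inside its body. Its 3 estradiol regions lay 21.5 to 34.5 kb beyond its 3′ end, nearer to the start site of GPR84 than to that of ITGA5. The highest, in coding exon 7 of the zinc finger gene ZNF385A (chr12:54370308-54370656), had an estradiol fold of 20.0 (below 20 before rounding, so counted in the middle band) and an LY500307 fold of 5.22.

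CD44, a hyaluronan receptor gene (chromosome 11, 35138882 to 35232402), had 5 estradiol regions. The highest (chr11:35135159-35135514) lay 3.56 kb upstream of the gene body with a fold of 14.0. The region with the ERE, 40.8 kb upstream, had a fold of 9.5. Both were in the estradiol list alone. The site shared with LY500307 was the promoter (chr11:35139115-35139343), where the estradiol fold was 5.36 and the LY500307 fold 4.34. The other 2 regions, with folds of 5.25 and 6.59, lay in introns of the glutamate transporter gene SLC1A2.

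**Figure D4:**
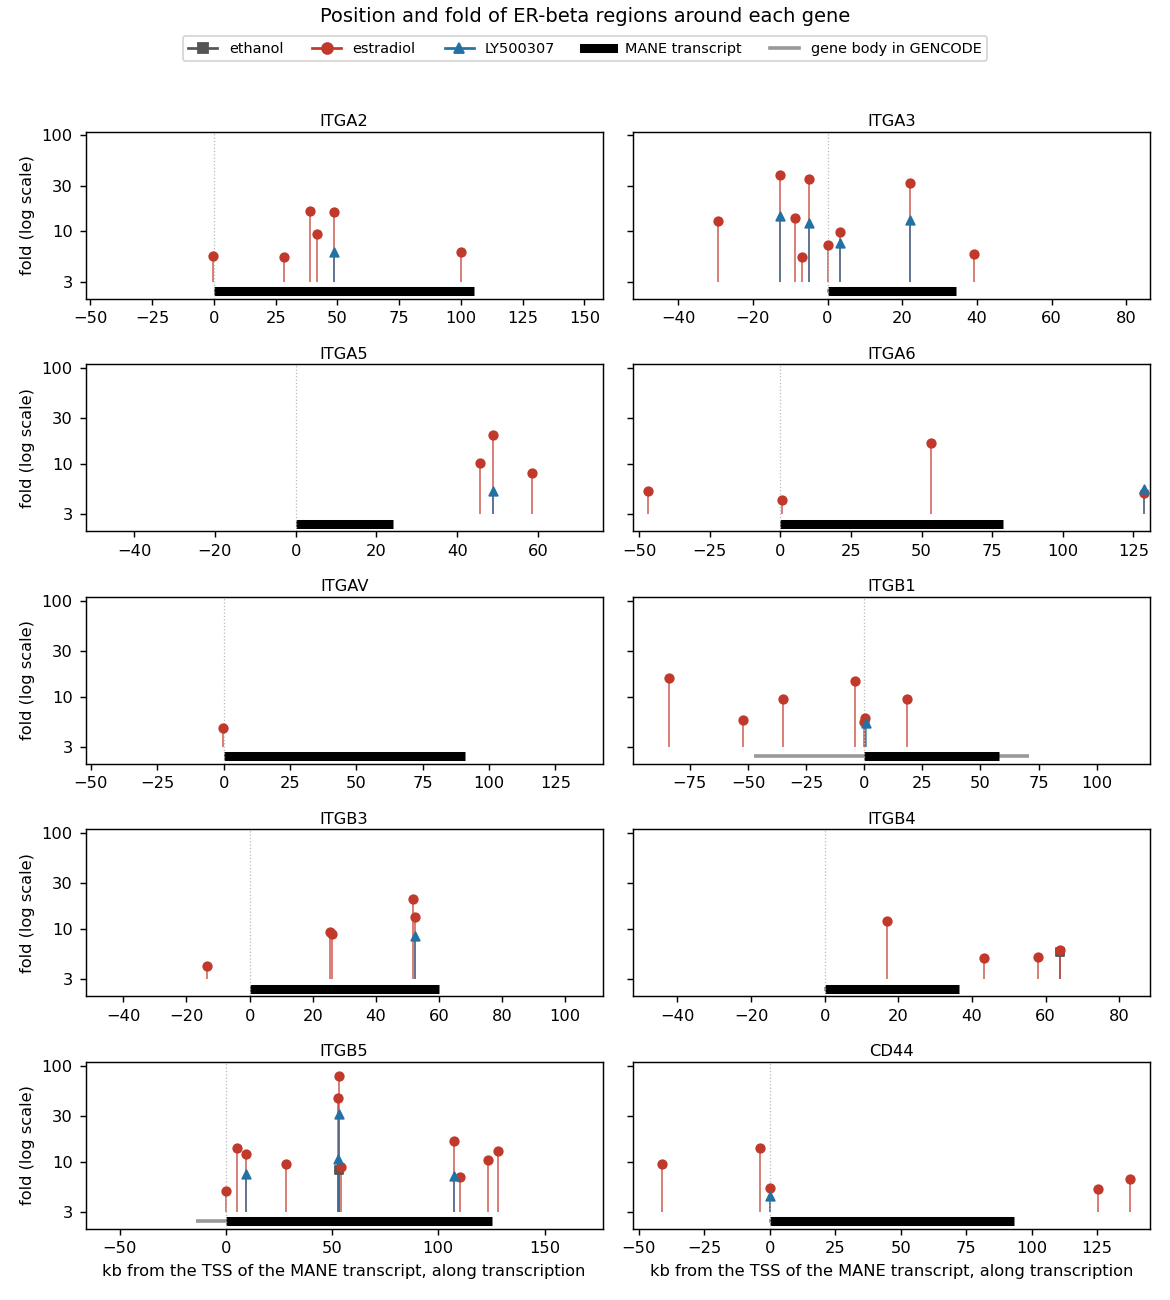
Position of each region (x axis, kb from the MANE start site along transcription) and its fold (y axis, log scale) in the ethanol, estradiol and LY500307 lists; black bars are MANE transcripts and grey bars the wider GENCODE bodies. The clustered sites in intron 5 of ITGB5 and the sites up to 12.6 kb upstream of ITGA3 stand out, and ITGAV has 1 region at its start site.

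Regions at the start sites of these genes were weak and held no ERE. Within 1 kb of a start site of their own gene lay 10 of the 55 estradiol regions (18.2%), at 7 genes (ITGA2, ITGA3, ITGA6, ITGAV, ITGB1, ITGB5 and CD44). Their folds were 4.20 to 11.9 with a median of 5.5, against a median of 9.79 for the 45 regions farther away. Their median GC content was 72.4%, against 52.7%. None of the 10 held an ERE, and all 7 ERE regions were farther away. The whole estradiol list, split by the start sites of all protein-coding genes, had the same order. Regions within 1 kb of such a site made up 28.3% of the list, with a median fold of 6.70 and an ERE in 3.98%. The others had 11.5 and 17.7%. These splits differ: the 45 include regions within 1 kb of another gene's start site, among them those at PDK1 and PDK2.
Of the 10 regions, 8 had a GC content of 70% or more; the others were at the promoter of the longer ITGB1 transcript (42.8%) and in intron 1 of ITGB5 (46.3%). An SP1 element lay within 100 bp of the summit in 4 of the 10, at ITGA2, ITGAV, ITGB1 and ITGB5, and within 50 bp in 2. Those 2, at ITGA2 and ITGAV, are printed with the SP1 elements in capitals and are thus not typical of the 10 in holding one.
ITGA2 promoter, fold 5.50 (chr5:52989041-52989141, plus strand, hg38): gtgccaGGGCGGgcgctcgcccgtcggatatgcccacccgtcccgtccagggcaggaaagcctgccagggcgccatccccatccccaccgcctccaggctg
ITGAV promoter, fold 4.73 (chr2:186589728-186589828, plus strand, hg38): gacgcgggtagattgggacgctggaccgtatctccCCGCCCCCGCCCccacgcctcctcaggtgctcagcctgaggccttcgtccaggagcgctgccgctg
SP1 letters were in 20.8% of the windows of the estradiol list and in 44.6% of 27305 RefSeq promoters of 300 bp (GRCh38.p14).

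In the estradiol list, the elements under the members' regions were about as frequent as in the whole list. An ERE with at most 1 mismatch was at 7 of 55 estradiol summits (12.7%, 6.3 to 24), against 13.8% of the list, and at 2 of 14 LY500307 summits (14.3%, 4.01 to 39.9), against 15.7%. It was at 1 of 2 ethanol summits, against 15.0%. In windows of equal width 2000 bp downstream the list-wide share was 0.644% with estradiol, 0.687% with LY500307 and 0.688% with ethanol, and no member window of the 3 lists held one. The half-site AGGTCA was at 26 of 55 estradiol summits (47.3%), against 44.7% of the list and 15.3% downstream. AP-1 was at 7 of 55 (12.7%), against 17.5% of the list and 6.14% downstream. TEAD was at 10 of 55 (18.2%), against 16.3% and 10.7%, and SP1 also at 10 of 55, against 20.8% and 6.31%. Every list-wide share lay inside the Wilson interval of the members' share. With 14 LY500307 and 2 ethanol regions the intervals are so wide that this says little for those lists. For the ERE with ethanol the interval ran from 9.45 to 90.5%.

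At the 14 sites found with both ligands, the estradiol fold divided by the LY500307 fold ranged from 0.919 at the PDK1 promoter beside ITGA6 to 4.29 at the second ITGB5 intron 5 site, with a median of 2.38. The median over all 9082 such estradiol regions was 2.58 (quartiles 1.86 and 3.37). The labels do not settle the LY500307 dose and the pools had separate scales, so these ratios describe the lists and are no test of potency.

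Other genes of the adhesion machinery were counted in the same way. Over all protein-coding genes the shares were 74.5% with estradiol, 49.2% with LY500307 and 22.8% with ethanol. A longer body gives a wider window, and these lists were not matched for gene length. Windows of neighbouring genes in these lists can overlap, so the same region can count for several genes. Of 17 other integrin subunit genes, all had an estradiol region within 50 kb, 7 an LY500307 region (41.2%) and 2, ITGA2B and ITGB2, an ethanol region (11.8%). Of 15 other matrix receptors and integrin partners, 14 had an estradiol region, all but DDR1, a collagen-binding kinase; 11 had an LY500307 region (73.3%) and 7 an ethanol region (46.7%). Of 20 genes of the adhesion complex that joins integrins to actin, all had an estradiol region, 18 an LY500307 region (90.0%) and 9 an ethanol region (45.0%). The median number of estradiol regions per gene was 2.0 for the other subunits, 4.0 for the matrix receptors and partners and 4.5 for the adhesion complex. It was 5.0 for the members and 2.0 for all protein-coding genes.
In the estradiol list, several of the cytoplasmic partners in the adhesion complex had folds above the 77.3 of ITGB5, the highest of the members. TLN1, which encodes talin, an activator of integrins, had a site 0.051 kb from the start site of the neighbouring gene ARHGEF39 (chr9:35664817-35665508) and its folds were 164.0 (estradiol), 80.6 (LY500307) and 20.1 (ethanol). ACTN1, an actin cross-linker, had a site 1.44 kb from its own start site with folds of 116.5, 40.8 and 7.16 in that order. BCAR1, an adaptor of focal adhesions, had a site 2.56 kb from its own start site with folds of 93.1, 28.9 and 9.35. Among the partners in the membrane, the highest shared site was near CD9, a tetraspanin that associates with integrins, where folds were 113.9, 51.9 and 10.8 and the nearest start site, at 31.7 kb, was that of PLEKHG6. Regions near a gene are not assigned to it by these data.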

How the data were processed

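ChIP-seq for Flag-tagged ER-beta was analysed from 3 deposited lists of enriched regions, 1 each for ethanol, estradiol and LY500307. Bowtie2 2.2.6, MACS2 2.1.1.20160309, DiffBind and hg38 are named, without roles, in the submitters' processing notes. The labels of the 4 ChIP libraries of a treatment point to 1 list, read as a pool; the protocol speaks of triplicates, so the number pooled is not known. The fold is the authors' ratio of ChIP signal over local background. The deposited -log10 q values are the authors' peak caller's, and the deposited display score was not used. Only regions of the autosomes, X and Y entered, 2905 of 2911 for ethanol, 26861 of 26896 for estradiol and 10045 of 10059 for LY500307, and were ranked by fold.

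The members and lists were chosen with earlier results of these data known. All 10 members were described, with their highest region per list and every region in all 3 lists, with an ERE or in their own promoter (from 1000 bp before a start site to 100 bp after it). Genes of other lists were named where a region was in all 3 lists; DDR1 was named after its values were seen. Genes and transcripts came from GENCODE 44, and start sites were those of protein-coding transcripts. Motifs were sought on both strands in 100 bp on each side of the summit and around a point 2000 bp downstream. Overlap and motif searches were tested on simulated data. Python 3.11.15, numpy 2.4.6, pandas 2.3.3, scipy 1.17.1 and pysam 0.24.0 were used.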

Additional observations from a re-analysis of the deposited data

How the results depend on the processing

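With 1 pooled list per treatment there were no replicates to leave out, and the read depth is unknown, so a missing region cannot be read as absence. No paired analysis was possible because the lists carry no replicate numbers. Member regions numbered 31 with estradiol when summits had to lie inside the gene body, against 55. For ethanol, both the number of regions and the number of members with one were 1 inside the body, 1 within 20 kb, 4 within 100 kb and 1 when the nearest start site had to be the member's, against 2. By that last rule 5 members, against 8, had an LY500307 region. When the ERE had to be intact, 1.82% of estradiol regions and 0% of LY500307 regions (0 of 14, which allows up to 21.4%) held one; when 2 mismatches were allowed, 41.8% and 42.9% did. These follow from the letters asked for. Without ITGA3 and ITGB5, chosen after seeing the data, summit density fell from 7.86 to 4.26 per Mb with LY500307 and from 1.12 to 0.71 with ethanol. Of the other values over all members, counts stayed within 1.5 times and shares inside the Wilson interval. Of the 30 counts per gene and list, 3 moved by more with a -log10 q or a fold of at least 5 (ITGA6 estradiol from 4 to 2, ITGAV estradiol from 1 to 0, CD44 LY500307 from 1 to 0), 7 within 20 kb (among them ITGA5 estradiol from 3 to 0 and CD44 from 5 to 2), 10 inside the body, 8 within 100 kb and 8 by the nearest start site. All 14 LY500307 regions lay in the estradiol list by 1 bp, 13 by summits within 200 bp and 11 by 50% of both regions.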

Other observations

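Beyond the 50 kb limit, 14 more estradiol regions lay within 100 kb of a member. Apart from the ITGB1 region with a fold of 98.7, the highest were near ITGB4. They lay at UNC13D, which encodes a protein of granule release, and WBP2, a coactivator gene, where folds were 45.0 (chr17:75845899-75846416) and 29.0 (chr17:75847059-75847418) with estradiol. The first was also in the LY500307 list with a fold of 10.5 and the second was not. A region at the start of CDC27, a cell-cycle ubiquitin ligase gene 64.7 kb from ITGB3, was in all 3 lists with summits within 0.144 kb of its start site, and its folds were 13.1 (estradiol), 8.73 (LY500307) and 4.58 (ethanol). One LY500307 region within 100 kb, 77.5 kb from ITGA2 (chr5:53172186-53172520, fold 5.56), overlapped no estradiol region, unlike all 14 within 50 kb.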
